A study of Salmo salar with 18 samples.

Results

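The genes ccn1, ctgf and adamts1, 3 of the 69389 genes counted in the gill of Atlantic salmon (Salmo salar), are described here across both diets and all sampling times. They were taken by their gene identifiers (ENSSSAG00000051615, ENSSSAG00000092078 and ENSSSAG00000006353) and had been chosen by their measured CPM and fold changes in these same libraries, in which they were high 1 h after stress. Their levels and the differences between groups are therefore given with errors and without tests. All 3 passed the filter on low counts that left 23416 genes, and their raw counts were 114 to 1840 for ccn1, 621 to 3652 for ctgf and 353 to 1245 for adamts1 in a library.

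The fish were parr of about 35 g at the start, all from one breeding line and all held in fresh water. They had been fed for 7 weeks, and during 1 further week of acclimatization, with a commercial-like control diet (CD) or with CD supplemented with LAN4. LAN4 is a hydrolyzed product of the yeast Debaryomyces hansenii, from a strain of marine origin. For each diet, gills were sampled before stress (pre-stress) and 1 h and 6 h after the fish had been netted out of the water for 1 min (post-stress), giving 6 groups of 3 fish and 18 libraries of whole gill. The tank of each sequenced fish is not given in the sources used here, so fish of a group may have shared a tank. In that case differences between groups cannot be told apart from differences between tanks. Standard deviations measure the spread between these fish, and p-values set group differences against that spread. No fish was sampled at 1 h or 6 h without having been netted, so stress cannot be told apart from the time of sampling.

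Matricellular proteins are secreted into the extracellular matrix, where they act on cells rather than serving as structural fibres. The CCN family members ccn1 (also called cyr61) and ctgf (connective tissue growth factor, also called ccn2) encode cysteine-rich proteins that bind integrins and heparan sulfate proteoglycans. In mammalian cells both are immediate-early genes that serum, mechanical load and activation of the co-activators YAP and TAZ or of serum response factor switch on, and ctgf is also a well-known target of TGF-beta. ADAMTS1 is a secreted metalloprotease with thrombospondin repeats that, in mammals, cleaves the proteoglycans versican and aggrecan. The gill is rich in blood vessels, epithelium, ionocytes (ion-pumping cells) and a supporting matrix with cartilage.

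On assembly Ssal_v3.1, ccn1 lies on chromosome 10 from 42959730 to 42962984 on the plus strand, with 5 exon blocks that sum to 2323 bases. The gene ctgf is on chromosome 6 from 60359295 to 60362141 on the minus strand, with 4 exon blocks of 2355 bases in all. On chromosome 17, adamts1 spans 8651328 to 8658871 on the plus strand, with 8 exon blocks of 4706 bases. No other gene of the annotation overlaps any of them, so the strand-specific counts of the 3 genes are not shared with an overlapping or antisense gene model. The related protease gene adamts5 ends 6374 bases from adamts1.

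Levels are given as CPM, counts per 1000000 counts on the 16 of 29 chromosomes that are complete in every file. These totals were scaled by trimmed means (TMM) over genes of the same chromosomes. The files of the 6 h libraries stop part of the way along the genome. Chromosomes 6 and 10 are complete in all libraries, and the first stop on chromosome 17, at 20263762, lies beyond adamts1, so all 3 genes are counted in all 18 libraries. The libraries held 7323608 to 14396655 counts on the complete chromosomes at pre-stress and 1 h, and 11983436 to 14644411 at 6 h. All 1 h libraries were read on lane 1 of the sequencer and all others on lane 3, so in every comparison with 1 h the lane and the time cannot be told apart. The 6 h and pre-stress libraries share a lane, and so do both diets at each time.

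Before stress, ccn1 was a gene of modest level in both diets. Its level was 19.95, 14.89 and 11.59 CPM in the 3 CD fish and 15.37, 14.05 and 16.38 CPM in the 3 LAN4 fish. At 1 h post-stress it stood at 129, 101 and 120 CPM in CD. In LAN4 it reached 134, 134 and 164 CPM. By 6 h the level was 12.14, 20.11 and 14.12 CPM in CD and 18.07, 20.66 and 17.04 CPM in LAN4. Every 1 h fish was thus far above every fish of the other times, and in CD the 6 h fish lay among the pre-stress fish.

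For ctgf the pre-stress levels were 54.3, 63.5 and 63.2 CPM in CD and 94.7, 96.9 and 114 CPM in LAN4, with no overlap between diets. The 1 h levels of ctgf were 232, 234 and 228 CPM in CD. In LAN4 they were 297, 236 and 294 CPM. At 6 h the 3 CD fish differed widely among themselves, at 140, 66.3 and 87.6 CPM, and the LAN4 fish stood at 134, 157 and 141 CPM. The coefficient of variation of ctgf in CD was 1.44% at 1 h and 38.7% at 6 h, and fish 1 supplied the high value at 6 h.

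For adamts1 the pre-stress fish had 35.6, 41.4 and 41.0 CPM in CD and 43.6, 46.9 and 47.8 CPM in LAN4. At 1 h the level was 94.4, 83.2 and 67.2 CPM in CD and 84.3, 80.7 and 89.2 CPM in LAN4. The 6 h fish had 38.4, 31.6 and 38.7 CPM in CD and 46.6, 52.2 and 46.3 CPM in LAN4. As with the CCN genes, all 1 h fish of a diet lay above all of its pre-stress and 6 h fish, although the distance was smaller.

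**Figure D1:**
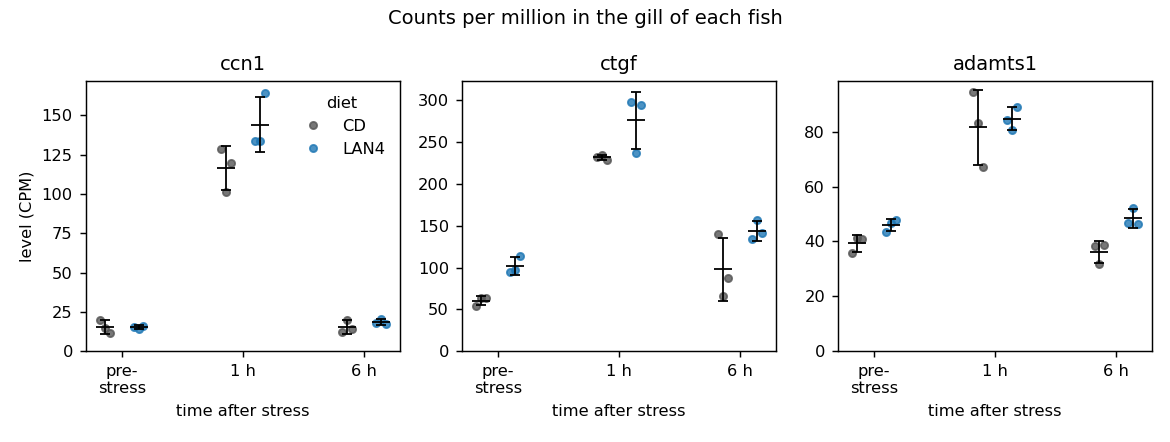
Level of ccn1, ctgf and adamts1 in CPM (vertical axes, starting at 0) at pre-stress, 1 h and 6 h post-stress. Points are single fish (grey CD, blue LAN4), and black bars give the mean and SD of the 3 fish of a group. The 1 h fish stand above the others of their diet in every panel, and the 6 h CD fish of ctgf spread from 66.3 to 140 CPM.

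The first comparison asked how the gill differed 1 h after the stress from the unstressed gill of the same diet. In CD the edgeR log2 fold change at 1 h was 2.91 (SE 0.19) for ccn1, a 7.50-fold difference. It was 1.94 (SE 0.19) for ctgf and 1.05 (SE 0.12) for adamts1, or 3.84-fold and 2.08-fold. Ranked among the 23416 tested genes from the most raised downward, ccn1 held place 31, ctgf place 108 and adamts1 place 460. The 1 h and pre-stress fish did not overlap for any of the 3 genes, as for 12.8% of all tested genes in the higher direction. At an adjusted p under 0.05, 1.26% of the tested genes were called higher, and nothing is read from these shares because the same contrast chose the genes.

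In LAN4 the order of the 3 genes at 1 h was the same. The log2 fold change was 3.24 (SE 0.19) for ccn1, 1.44 (SE 0.19) for ctgf and 0.88 (SE 0.12) for adamts1, which correspond to 9.45-fold, 2.71-fold and 1.84-fold. Here ccn1 held place 36 from the top, ctgf place 188 and adamts1 place 508. Again the fish of the 2 times did not overlap for any member, as for 10% of tested genes in the higher direction, and 0.961% of tested genes were called higher. Both diets thus showed the largest difference for ccn1 and the smallest for adamts1.

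The size of the 1 h change was set beside that of the other diet as an interaction, the LAN4 change minus the CD change. On the log2 scale it was 0.33 (SE 0.26) for ccn1, -0.50 (SE 0.26) for ctgf and -0.17 (SE 0.17) for adamts1. The change was thus nominally larger in LAN4 for ccn1 and in CD for the other two. For ctgf the difference came with the higher pre-stress level in LAN4: the 1 h gain in mean level was 171 CPM in CD and 174 CPM in LAN4. Of all tested genes, 0.00854% had a called interaction at 1 h.

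From 1 h to 6 h the level of all 3 genes was lower in both diets. In CD the log2 fold change of 6 h against 1 h was -2.91 for ccn1, -1.24 for ctgf and -1.17 for adamts1, and only 25 tested genes lay below ccn1. No member overlapped between these times in CD, as for 15.4% of tested genes in the lower direction. Of all tested genes, 6.27% were called lower. In LAN4 the corresponding log2 values were -2.95, -0.94 and -0.81, again without overlap, beside 14.7% of tested genes without overlap and 3.66% called lower.

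The 6 h fish were then set against the pre-stress fish of the same diet, a comparison within one lane. For ccn1 the log2 fold change was -0.01 (SE 0.19) in CD, where the fish overlapped. In LAN4 it was 0.29 (SE 0.19), and the 6 h fish, from 17.04 to 20.66 CPM, lay just above the pre-stress fish, from 14.05 to 16.38 CPM. For adamts1 it was -0.12 (SE 0.12) in CD and 0.07 (SE 0.12) in LAN4, with overlap in both diets.

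Of the 3 genes, ctgf had the largest difference between 6 h and pre-stress in both diets. Its log2 fold change of 6 h against pre-stress was 0.70 (SE 0.19) in CD and 0.50 (SE 0.19) in LAN4. The CD value was 0.35 without fish 1 of the 6 h group and 0.91 without fish 2, so it rested in large part on single fish. The LAN4 value stayed between 0.43 and 0.59 when any library was left out. In CD ctgf was the 1 member whose times did not overlap, as for 11.6% of tested genes in the higher direction. In LAN4 ctgf and ccn1 did not overlap, as for 11.7% of tested genes. At an adjusted p under 0.05, 1.8% and 2.33% of tested genes were called higher at 6 h in CD and LAN4.

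Expressed as the part of the 1 h gain in mean CPM that remained at 6 h, ctgf kept 22.0% in CD and 24.2% in LAN4. The value was -0.02% in CD and 2.58% in LAN4 for ccn1, and -7.28% and 5.91% for adamts1, where a negative value means a 6 h mean below the pre-stress mean. Leaving out single fish, an alternative added after the data were seen, moved the CD value of ctgf to 9.70% without fish 1 of the 6 h group and to 31.2% without fish 2. The LAN4 value of ctgf stayed between 20.4% and 27.1%. The values of ccn1 and adamts1 stayed between -12.2% and 8.60% when any fish of the diet was left out.

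**Figure D2:**
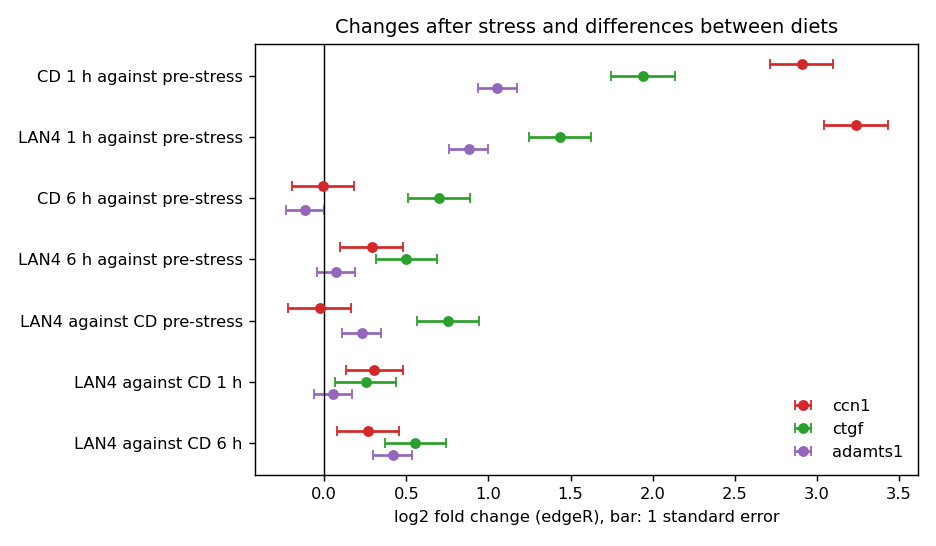
edgeR log2 fold changes (horizontal axis) of ccn1, ctgf and adamts1 for the changes after stress in each diet and for LAN4 against CD at each time. Bars are 1 standard error and the vertical line marks no difference. At 1 h the order from ccn1 (2.91 and 3.24) through ctgf (1.94 and 1.44) to adamts1 (1.05 and 0.88) holds in both diets, and at 6 h ctgf lies furthest to the right.

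Dietary LAN4 was compared with CD at each time. Before stress, ccn1 showed no separation, with a log2 difference of -0.03 (SE 0.19) and overlapping fish. The level of ctgf was higher in LAN4, at 102 ± 10.4 CPM against 60.3 ± 5.19 CPM (mean ± SD, n = 3), a log2 difference of 0.75 (SE 0.19). For adamts1 the means were 46.1 ± 2.18 CPM in LAN4 and 39.3 ± 3.21 CPM in CD, a log2 difference of 0.23 (SE 0.12). The fish of the 2 diets did not overlap for ctgf or adamts1, as for 9.36% of tested genes in the higher direction. Only 0.00854% of tested genes were called between the diets before stress.

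At 1 h the diets lay closer for ctgf, with a log2 difference of 0.25 (SE 0.18). Its LAN4 fish, from 236 to 297 CPM, were just above its CD fish, from 228 to 234 CPM. For ccn1 the difference was 0.31 (SE 0.17), with LAN4 fish from 134 to 164 CPM above CD fish from 101 to 129 CPM, and it was 0.20 without fish 3 of the LAN4 group. No separation was seen for adamts1, at 0.05 (SE 0.12). A lack of overlap as for ccn1 and ctgf was found for 6.95% of tested genes in the higher direction, and 0% of tested genes were called at 1 h. By edgeR 1952 genes had an unadjusted p under 0.05 at that time, and DESeq2 called 21.

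At 6 h all 3 means were higher in LAN4. The log2 difference was 0.27 (SE 0.19) for ccn1, 0.55 (SE 0.19) for ctgf and 0.42 (SE 0.12) for adamts1. Only adamts1 had no overlap, with 46.3 to 52.2 CPM in LAN4 and 31.6 to 38.7 CPM in CD, as for 10.5% of tested genes in the higher direction, and 0.512% of tested genes were called higher in LAN4. The ctgf difference was 0.91 without fish 1 of the CD group and 0.35 without fish 2. For ccn1 it was 0.13 and 0.51 without these fish, so for both genes the size of the 6 h difference turned on them. The interaction at 6 h was 0.30 (SE 0.27) for ccn1, -0.20 (SE 0.26) for ctgf and 0.19 (SE 0.17) for adamts1 on the log2 scale.

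Levels of cell type markers were set beside these differences. RefSeq names matched 4 of 7 ionocyte markers, and their summed level was 657 to 1375 CPM, so ionocyte RNA was present in every library. The epithelial gene krt18b (1 of 6 names) had 48.4 to 74.3 CPM, and 2 erythrocyte genes (2 of 6 names) summed to 568 to 1583 CPM. Before stress the erythrocyte sum was 772 to 1128 CPM in CD and 722 to 966 CPM in LAN4. It was 736 to 859 CPM in CD and 932 to 992 CPM in LAN4 at 1 h. At 6 h it was higher in CD, at 925 to 1583 CPM, than in LAN4, at 568 to 867 CPM. These differences lay in alas2, with means of 468.7 CPM in CD and 623.9 CPM in LAN4 at 1 h, and 847.5 and 406.5 CPM at 6 h. The other gene, slc4a1b, had 342 and 345.5 CPM at 1 h and 340.1 and 355.2 CPM at 6 h. Neither gene was called between the diets at 1 h or 6 h. Of the matched markers on the 8 cell type lists, those in the stretches counted in every library were checked for a count of 0. Only skeletal muscle genes had one: ckmb and atp2a1 in fish 3 of the CD 1 h group, and LOC100194658 in 9 libraries. Matched markers outside these stretches, among them the cartilage gene matn1, were not checked. The fibroblast gene col1a1a, 1 of 5 names on its list that could be tested, ranged before stress from 831 to 1826 CPM in CD and from 2206 to 3140 CPM in LAN4. At 6 h it ranged from 851 to 1556 CPM in CD and from 1928 to 2612 CPM in LAN4. At 1 h its ranges in the diets overlapped, at 1855 to 2615 CPM and 1806 to 2313 CPM. Before stress neither col1a1a nor ctgf overlapped between the diets, as for 9.36% of tested genes in the higher direction. At 1 h ctgf had 236 to 297 CPM in LAN4 and 228 to 234 CPM in CD. At 6 h it had 134 to 157 CPM in LAN4 and 66.3 to 140 CPM in CD, where fish 1 was the highest. The log2 difference between diets was 0.25 for ctgf and -0.12 for col1a1a at 1 h. It was 0.55 for ctgf and 0.85 for col1a1a at 6 h.

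The smooth muscle actin gene acta2, 1 of 5 names on its list, had a mean of 122 CPM in CD and 224 CPM in LAN4 before stress, and 144 and 297 CPM at 6 h. The 4 genes matched to skeletal muscle markers and counted in every library summed to 46.8 to 218 CPM in CD and 356 to 444 CPM in LAN4 before stress. The 2 cartilage genes (2 of 6 names) summed to 83.3 to 165 CPM in CD and 205 to 247 CPM in LAN4 before stress. Nearly all of this was col2a1b. The part of these tissues in the diet differences of ctgf and adamts1 was not tested, and in whole gill a different number of cells of a type cannot be told apart from a different RNA content per cell.

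The same markers were set beside the 1 h change. In CD, col1a1a had a mean of 1385 CPM before stress and 2313 CPM at 1 h, and the cartilage sum was 128 and 273 CPM. In LAN4 col1a1a had 2623 CPM before stress and 2132 CPM at 1 h, and the cartilage sum was 219 and 236 CPM. Nearly all of the cartilage sum was col2a1b. The other cartilage gene, col9a1b, had means of 1.312 and 1.397 CPM in CD and 1.53 and 1.315 CPM in LAN4. The means of ccn1, ctgf and adamts1 were higher at 1 h in both diets, and that of col1a1a was higher in CD and lower in LAN4. Of 6 endothelial names only pecam1 and vwf matched, with 3 genes (pecam1a, pecam1b and vwf). These 3 genes summed to means of 999 and 1048 CPM in CD and 1183 and 982 CPM in LAN4 at the same times. The skeletal muscle sum had means of 137 and 93.0 CPM in CD and 392 and 197 CPM in LAN4. Of the ionocyte markers, atp1b1a, a subunit gene of the sodium pump, rose in CD from 102 ± 5.82 to 203 ± 38.0 CPM (mean ± SD, n = 3), a log2 fold change of 0.99 (adjusted p = 0.00067 by edgeR) close in size to that of adamts1. In LAN4 it had 121 ± 7.48 and 161 ± 14.1 CPM, a log2 fold change of 0.41 (adjusted p = 0.20 by edgeR). Of the 4 ionocyte genes, 2 had higher means at 1 h in each diet, atp1b1a and foxi3a. The means of slc12a2 and atp6v1ab were lower in both diets. For slc12a2, the most abundant of them, they were 983 and 880 CPM in CD and 768 and 714 CPM in LAN4. Only atp1b1a in CD was called. The ionocyte sum, most of it slc12a2, had means of 1185 and 1198 CPM in CD and 974 and 976 CPM in LAN4. The smooth muscle gene acta2 had means of 122 and 162 CPM in CD and 224 and 183 CPM in LAN4. The part of these markers in the 1 h differences of ccn1, ctgf and adamts1 was not tested.

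Divided by exon length, levels can be set between the genes. Before stress, ctgf was the most abundant at 25.6 CPM per kb of exon in CD and 43.2 in LAN4, against 8.36 and 9.80 for adamts1 and 6.66 and 6.57 for ccn1. At 1 h ccn1 stood second, at 50.2 CPM per kb in CD and 62.0 in LAN4, above adamts1 at 17.34 and 18.01, and ctgf was still first at 98.3 and 117. At 6 h the means were again in the pre-stress order, with ctgf at 41.6 and 61.1, adamts1 at 7.70 and 10.3 and ccn1 at 6.65 and 8.00.

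Ratios within a fish do not depend on the scaling of the library. The ratio of ccn1 to adamts1 per kb was 0.57 to 1.13 in pre-stress CD fish and 2.46 to 3.61 at 1 h. In LAN4 it was 0.61 to 0.71 before stress and 3.22 to 3.73 at 1 h. The pre-stress and 6 h neighbours in this order, adamts1 and ccn1, did not differ beyond their spread in CD, where the ratio ran to 1.29 at 6 h. In all 6 LAN4 fish of these times ccn1 was below adamts1, with a ratio of 0.80 at most. The ratio of ctgf to ccn1 per kb had a mean of 4.09 before stress, 1.98 at 1 h and 6.91 at 6 h in CD, and of 6.58, 1.90 and 7.65 in LAN4.

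Across the 18 libraries Pearson's r of the log2 CPM was 0.84 for ccn1 with ctgf, 0.92 for ccn1 with adamts1 and 0.91 for ctgf with adamts1. The libraries share the 3 times, and the genes were chosen for a common pattern. After the mean of each group was taken away, r was -0.51, -0.31 and 0.54. Fish of a group with more ccn1 thus did not tend to have more ctgf.

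Among 20187 tested genes with a mean log2 CPM of at least 1, the 5 most like each member over the 18 libraries were listed by Pearson's r. For ccn1 these had r of 0.97 to 0.99. One was btg2, an anti-proliferative immediate-early gene in mammals, with r of 0.98 and means of 155, 366 and 163 CPM at pre-stress, 1 h and 6 h in CD and 152, 433 and 151 CPM in LAN4. The closest was LOC106606687, with r of 0.99 and means of 16.5, 52.5 and 17.3 CPM in CD. The other 3 were LOC106607038, ENSSSAG00000045856 and ENSSSAG00000077470. Of these, ENSSSAG00000045856 had a larger 1 h difference than ccn1, from 6.13 to 117 CPM in CD and from 6.63 to 135 CPM in LAN4.

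For ctgf the 5 closest genes had r of 0.91 to 0.95. The homeobox gene dlx3b came first, with means of 26.1, 42.1 and 31.5 CPM in CD and 30.5, 51.3 and 36.7 CPM in LAN4. Also among them was plk3, which encodes a polo-like kinase and had 8.99, 20.2 and 11.0 CPM in CD. The others were ENSSSAG00000087280, ENSSSAG00000074774 and ENSSSAG00000094156. Both named genes had a 6 h mean above the pre-stress mean in both diets, as ctgf had. Choosing genes by their correlation with ctgf favours such a likeness, so nothing is read from it.

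The 5 genes closest to adamts1 had r of 0.95 to 0.97 and were LOC106571014, ENSSSAG00000086185, LOC100286404, LOC106580552 and LOC106562281. None of the 15 genes was on 2 of the lists. By the same measure adamts1 was the 7th most like ctgf and the 37th most like ccn1 of 20186 genes, and ctgf was 95th for ccn1.

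**Figure D3:**
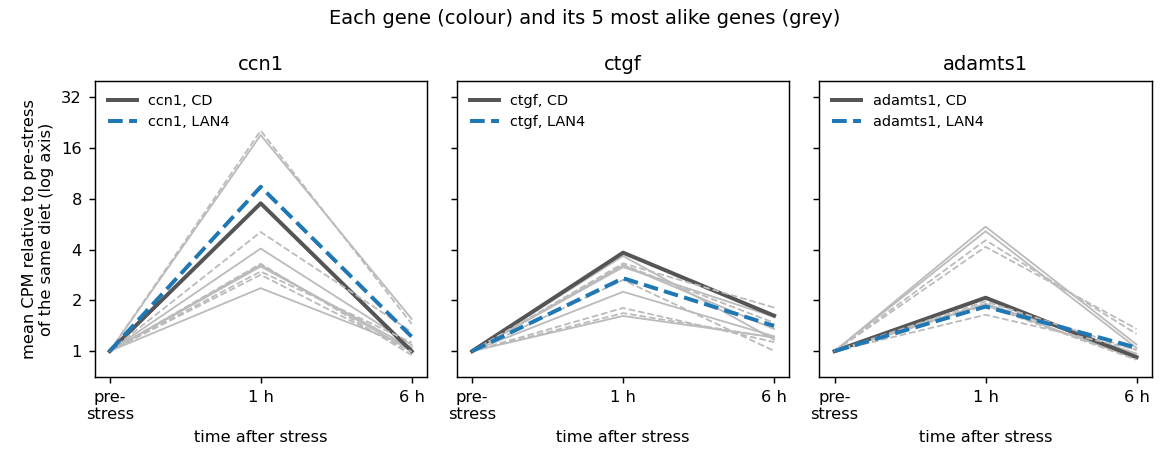
Mean CPM at each time divided by the pre-stress mean of the same diet (log axis) for ccn1, ctgf and adamts1 (thick lines, solid grey CD and dashed blue LAN4) and the 5 genes with the highest correlation to each (thin grey lines, solid CD, dashed LAN4). All profiles peak at 1 h, and the ctgf lines end above 1 at 6 h in both diets.

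Lists of 106 names in 8 groups related to the 3 genes were examined: CCN family, ADAMTS proteases, their substrates and inhibitor, other matricellular genes, CCN receptors, and the YAP, SRF and TGF-beta pathways. Of these, 44 genes beside the members had a matching RefSeq symbol and 26 could be tested. The tests were edgeR's quasi-likelihood tests with Benjamini-Hochberg adjustment over all 23416 genes. At 1 h against pre-stress, 0 of the 26 were called in CD, and 1 was called in LAN4, beside 1.9% and 1.14% of all tested genes. DESeq2 called 3 in CD. An unadjusted edgeR p under 0.05 was found in CD for 12 of the 26 (46.2%) and for 17.5% of all tested genes, and in LAN4 for 7 (26.9%) and 14.5%. The median log2 fold change of the 26 was 0.16 in CD and -0.14 in LAN4, against 0.00 and -0.01 over all genes. The counts of calls were thus near the share among all genes, and unadjusted p-values under 0.05 were a larger share of the listed genes than of all genes.

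The gene called in LAN4 at 1 h was mob1a, which encodes an activator of the Hippo kinases that restrain YAP. Its level was 73.1, 98.8 and 74.3 CPM before stress and 108, 127 and 112 CPM at 1 h, a log2 fold change of 0.49 (adjusted p = 0.049). The call was at the threshold and was lost when any of 15 of the 18 libraries was left out. In CD mob1a had 80.1 ± 5.20 CPM before stress and 107 ± 2.53 CPM at 1 h (mean ± SD, n = 3), a log2 fold change of 0.42 with an adjusted p of 0.069 by edgeR.

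By RefSeq symbol or synonym, 1 other gene had the name of a member, ccn1l1 (ENSSSAG00000116908, chromosome 1). Genes with only a LOC number were not searched by their descriptions, so further copies of the members may have been missed. The levels of ccn1l1 were 8.13, 12.0 and 16.5 CPM before stress and 26.8, 20.6 and 25.9 CPM at 1 h in CD. These fish did not overlap, as for 12.8% of tested genes in the higher direction. In LAN4 they were 15.5, 19.5 and 19.8 CPM before stress and 21.1, 11.1 and 19.9 CPM at 1 h. The log2 fold change at 1 h was 1.01 in CD (adjusted p = 0.065 by edgeR) and -0.07 in LAN4 (adjusted p = 0.94 by edgeR), and their difference had an adjusted p of 0.41. How alike the 2 gene sequences are was not examined, and whether reads of one were counted to the other was not tested. The fold changes of ccn1 itself in both diets were several times larger.

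The other CCN gene tested, ccn6, and the 5 ADAMTS genes beside adamts1 had no call at 1 h. Beside adamts1 on the chromosome, adamts5, which like adamts1 is an aggrecan-cleaving protease in mammals, was named for its position. Its means were 46.9 ± 4.46 CPM before stress and 46.6 ± 8.29 CPM at 1 h in CD, and 52.6 ± 13.9 and 44.5 ± 5.74 CPM in LAN4 (mean ± SD, n = 3). Its log2 fold changes were -0.01 and -0.24. Over the 3 nearest genes on each side of each member, 11 of 18 could be tested and 0 were called at 1 h in either diet by edgeR, with log2 fold changes from -0.45 to 0.62. The highest value was that of LOC106607752 beside ctgf in CD, where ctgf itself had 1.94. The gene nearest ccn1, ENSSSAG00000051612 at 171 bases, was not among those tested.

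From 1 h to 6 h in CD, 7 of the 26 related genes were called lower and 0 were called higher, beside 6.27% and 5.46% of all tested genes. The median log2 fold change of the 26 was -0.33, against 0.00 over all genes. The ones called lower were ccn1l1, the procollagen protease gene adamts3, adamts10 (linked to fibrillin microfibrils in mammals), periostin (postna), smoc1, the integrin subunit gene itga5 and tgfb1a. The number was 4 without fish 3 of the 1 h CD group and also 4 without fish 2 of the 6 h CD group. This is the comparison in which lane and time cannot be told apart.

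Of these, adamts10 had 36.7, 35.5 and 36.5 CPM at 1 h and 18.3, 19.6 and 19.1 CPM at 6 h in CD, a log2 fold change of -0.93 (adjusted p = 0.0018 by edgeR). The values of adamts3 were 5.55, 5.88 and 4.31 CPM at 1 h and 1.33, 1.80 and 2.83 CPM at 6 h, a log2 fold change of -1.41 (adjusted p = 0.0056 by edgeR). For smoc1, a calcium-binding matricellular protein, the log2 fold change was -1.04 and for postna, a fibroblast product that binds integrins, it was -1.07. The values of ccn1l1, itga5 (a subunit of the fibronectin receptor) and tgfb1a (the ligand TGF-beta 1) were -1.02, -0.71 and -0.49. The marker col1a1a also fell in this comparison, by 0.85 on the log2 scale (adjusted p = 0.043 by edgeR), from 2313 to 1280 CPM, and its part in the change of the 7 genes was not tested.

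In LAN4, 3 of the 26 were called lower at 6 h than at 1 h and 0 were called higher, beside 3.66% and 4.29% of all tested genes. They were mob1a (log2 fold change -0.49), nf2b (-0.81), a salmon gene for the Hippo regulator merlin, and smad7 (-0.62), an inhibitor of TGF-beta signalling. Another merlin gene, nf2a on chromosome 24, was not counted in every library and was not tested. The level of smad7 was 63.0, 56.0 and 61.3 CPM at 1 h and 35.7, 40.2 and 41.6 CPM at 6 h, with an adjusted p of 0.0032 by edgeR. The difference between diets in the change from 1 h to 6 h, a test added after the data were seen, was called for 0 of the 26 genes, beside 0.0171% of all genes, and 8 of the 26 (30.8%) had an unadjusted p under 0.05, against 16.9% of all genes. Its adjusted p was lowest for itga5 at 0.078 and was 0.085 for adamts3 and 0.098 for ccn1l1. The lists of the 2 diets were therefore not shown to differ. The members' own log2 values for this difference were -0.04 (SE 0.25) for ccn1, 0.30 (SE 0.26) for ctgf and 0.36 (SE 0.16) for adamts1. The planned interactions, the LAN4 change from pre-stress minus the CD change, were called for 0 of the 26 at 1 h and 0 at 6 h. At 1 h 10 of the 26 (38.5%) had an unadjusted p under 0.05 by edgeR, against 9.9% of all genes. At 6 h 0 of the 26 had one, against 4.275% of all genes.

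At 6 h against pre-stress, 0 of the 26 were called in CD, beside 3.08% of all tested genes. An unadjusted p under 0.05 by edgeR was found there for 8 of them (30.8%, against 17.7% of all genes). In LAN4, 1 was called, in the higher direction, beside 3.73% of all tested genes called in either direction. It was cnn2, the gene for an actin-binding calponin on the list of serum response factor targets. Its level was 173, 205 and 177 CPM before stress and 278, 250 and 226 CPM at 6 h, a log2 fold change of 0.44 (adjusted p = 0.026 by edgeR). The call was lost without fish 1 or fish 3 of the pre-stress group or fish 2 of the 6 h group. At 1 h, when the CCN genes were high, cnn2 had means of 197 CPM in CD and 209 CPM in LAN4.

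Between diets, 0 of the 26 related genes were called by edgeR before stress and 0 at 1 h, with 9 and 5 at an unadjusted p under 0.05 (34.6% and 19.2%, against 9.30% and 8.34% of all genes). At 6 h, 3 were called higher in LAN4, beside 0.512% of all tested genes. They were adamts3, with 5.03, 5.90 and 4.67 CPM in LAN4 and 1.33, 1.80 and 2.83 CPM in CD, and postna, with 63.6, 62.5 and 53.0 CPM in LAN4 and 31.0, 16.2 and 17.2 CPM in CD. The third was itga5, with 70.8, 88.3 and 73.9 CPM in LAN4 and 48.8, 35.6 and 54.8 CPM in CD. Their log2 differences were 1.40, 1.47 and 0.74 (adjusted p = 0.041, 0.037 and 0.040 by edgeR). None of the 3 was called when any of 5 libraries was left out in turn: the 3 LAN4 6 h fish, fish 2 of the CD 6 h group or fish 2 of the CD 1 h group. The genes col1a1a and acta2 had log2 differences of 0.85 and 1.04 at 6 h (adjusted p = 0.12 and 0.051 by edgeR). The skeletal muscle sum had means of 65.9 CPM in CD and 397 CPM in LAN4, and the median log2 difference of its 3 tested genes was 2.68, with 0 of the 3 called. The endothelial gene pecam1a was higher in LAN4, at 24.7 ± 0.83 against 16.7 ± 0.71 CPM (mean ± SD, n = 3), a log2 difference of 0.56 (adjusted p = 0.041 by edgeR). The part of these tissues in the 3 calls, and in the 6 h differences of the members, was not tested.

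**Figure D4:**
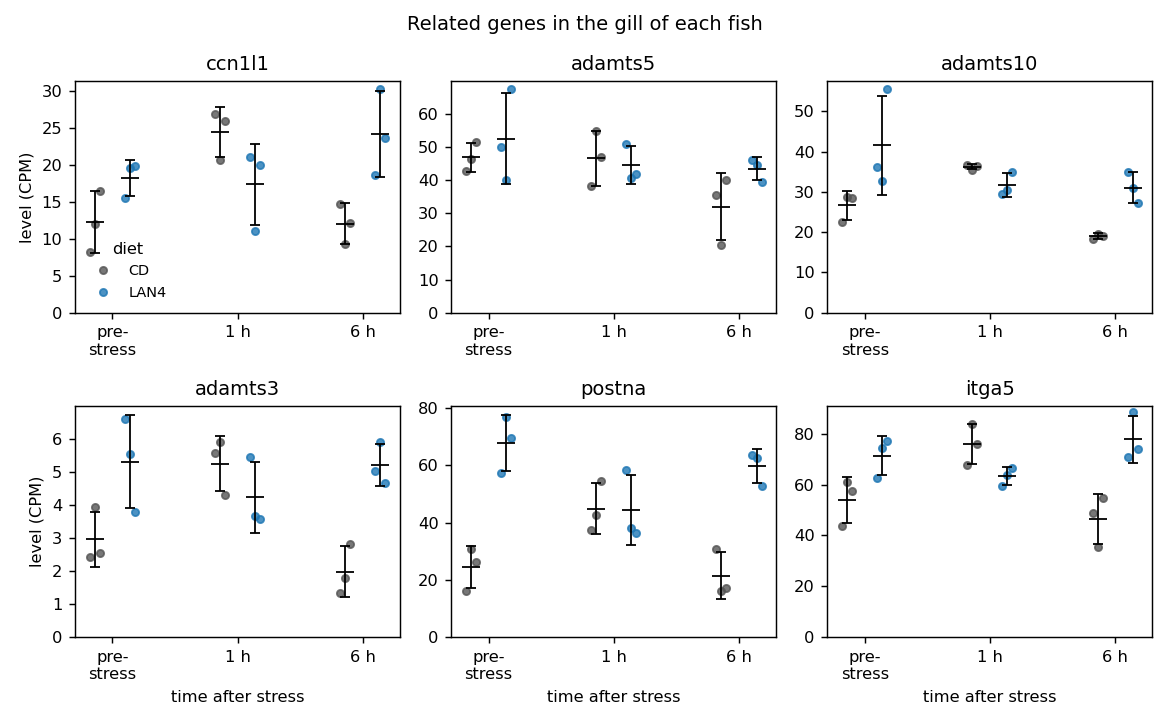
CPM (vertical axes, starting at 0) of the CCN gene ccn1l1, 3 ADAMTS genes, periostin (postna) and the integrin gene itga5 at pre-stress, 1 h and 6 h post-stress. Points are single fish (grey CD, blue LAN4), and black bars give the mean and SD of 3 fish. In CD the 6 h mean of every gene shown is below its 1 h mean. At 6 h the LAN4 fish of every gene shown but adamts5 lie above all CD fish, as for 10.5% of all tested genes.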

How the data were processed

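Gill RNA from 18 salmon was sequenced as stranded paired-end mRNA libraries. Per the file headers the authors counted fragments per gene with featureCounts version 1.5.1, reverse-stranded, on assembly Ssal_v3.1 with Ensembl gene identifiers; the deposited values are raw counts, not normalized. Genes were named from RefSeq through overlapping gene models (34983 matched, 8967 with a symbol other than a LOC number), so the lists of related genes are incomplete. Genes of the 16 complete chromosomes and 498 of chromosome 17 were used (43113 genes). The filter of edgeR 4.0.16 (filterByExpr) left 23416, which were fitted by quasi-likelihood with the 6 groups, all 18 libraries and TMM scaling in R 4.3.3, after tests on simulated data. An adjusted p under 0.05 is a call. SE is the log2 fold change divided by the root of F. Correlations used log2 CPM with a prior count of 2.

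The 3 genes and the lists were chosen with earlier results of these data known. Named genes were the members, up to 3 called genes per list, other genes with a member's name and the 5 most alike genes. Alternatives were DESeq2 1.42.0, other scalings and filters, fits of 2 groups, a replicate block and leaving out libraries. Depth was 10128626 to 19851609 counts at pre-stress and 1 h and 14686078 to 15102528 at 6 h. Replicates of a group differed by more than sampling noise. No sequences are shown.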

Additional observations from a re-analysis of the deposited data

How the results depend on the processing

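The 27 log2 differences of ccn1, ctgf and adamts1 were recomputed under the alternatives fitted with edgeR, giving 660 values. Fold changes from DESeq2 are not among them. The sign differed in 8 of these, all for values near 0 (ccn1 at 6 h against pre-stress in CD and between diets before stress, and adamts1 between diets at 1 h). The other values kept their sign.

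Replicate numbers were not treated as pairs of fish. After group means were taken away, the median r between fish of different groups was 0.0077 for the same number and -0.0037 for other numbers. Of the 45 same-numbered pairs, 12 had r over 0.1, and other-numbered pairs were not counted in this way. With a replicate block, 1 gene in place of 2 was called between diets before stress and no other count moved by over 1.5 times: 446 genes were called at 1 h in CD and 243 in LAN4, and ccn1 had log2 fold changes of 2.91 and 3.24.

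Counts of called genes depended on the tool. DESeq2 called 1037 genes in place of 445 at 1 h in CD, 521 for 266 in LAN4, 1241 for 721 at 6 h against pre-stress in CD, 1369 for 874 in LAN4, and between diets 106 before stress, 21 at 1 h and 823 for 139 at 6 h. Of the 26 related genes it called 3 at 1 h in CD, and between diets 1 before stress and 5 at 6 h. Fits of only the 2 groups compared called 109 genes at 6 h against pre-stress in CD and 530 in LAN4, 1422 for 2748 at 6 h against 1 h in CD, 1213 for 1861 in LAN4, and between diets 23 before stress and 33 at 6 h. Of the related genes these fits called 1 at 1 h in CD, 0 in LAN4 and 0 between diets at 6 h. At 1 h in LAN4 0 related genes were called without TMM, without a filter on low counts, or without the 6 h libraries (an alternative added after seeing the data), when 4 genes were called between diets before stress.

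Leaving out 1 library at a time gave 172 (without fish 2 of CD 1 h) to 599 calls at 1 h in CD and 167 (without fish 3 of LAN4 1 h) to 309 in LAN4. At 6 h against pre-stress it gave 235 (without fish 3 of CD pre-stress) to 756 in CD and 337 (without fish 2 of LAN4 6 h) to 1056 in LAN4. At 6 h against 1 h it gave 1059 (without fish 2 of CD 1 h) to 2907 in CD and 648 (without fish 2 of LAN4 6 h) to 2127 in LAN4. Between diets it gave 1 to 4 before stress, 0 to 1 at 1 h and 0 (without fish 2 of CD 6 h) to 366 at 6 h. For the related genes it gave 0 to 1 at 1 h and at 6 h against pre-stress in each diet and between diets before stress, 4 to 7 at 6 h against 1 h in CD, 2 to 3 in LAN4, and 0 to 5 between diets at 6 h. The cause of these shifts was not tested.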
